A study of Homo sapiens with 3 samples.

Results

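The genes of S phase and mitosis are 56 genes chosen by name for their roles in copying and dividing the genome, among 19775 genes with a probe set of their own on the arrays. They were read from 112 of 54675 probe sets, with each gene represented by its probe set of highest mean over the arrays. By role, 22 act in DNA replication, 28 in mitosis, 3 in control of the step from G1 to S phase, and 3 are transcription factors of the cycle. All cells derived from H9, an established line of human embryonic stem cells, taken off mouse embryonic fibroblasts and grown as embryoid bodies when differentiation began. RA astrocytes were cultured to day 210 after retinoic acid, and FGF8 astrocytes to day 210 after fibroblast growth factor 8, each given from day 10 to day 21. Neuroepithelial cells were taken at day 17 and received neither morphogen. Each group had 1 array, which limits the precision: differences are given by their size, without a test or a check against replicates.

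DNA replication starts when the origin recognition complex, CDC6 and CDT1 load the MCM helicase onto DNA in G1. CDC45 and the GINS complex then switch the helicase on, and polymerases follow behind the sliding clamp PCNA. Entry into mitosis is driven by CDK1 with cyclins A and B, and exit by the anaphase-promoting complex (APC/C), a ubiquitin ligase that destroys cyclin B and securin. Transcription of replication genes peaks around entry into S phase under E2F factors. Transcription of mitotic genes peaks later, under the MuvB complex with B-MYB and FOXM1, which reaches the CHR element of their promoters. In resting cells the DREAM complex, built on the same MuvB core, represses both groups. Neuroepithelial cells are rapidly dividing progenitors, while astrocytes mostly leave the cycle as they mature.

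Promoter windows from RefSeq (GRCh38.p14), from 250 bases before to 50 bases after an annotated start site, were at hand for 47 of the 56 genes, in 61 windows. None was used for MCM4, MCM5, CCNE2, FOXM1, AURKA, BIRC5, TTK, UBE2C or TPX2. The stretches below belong to the 3 replication and 3 mitosis genes with the largest difference between RA astrocytes and neuroepithelial cells among those with an E2F or CHR match, with bounds taken at their value. They are shown because the classes differ in the elements their windows hold, though not every match shown lies near the start site. Capitals mark every match on either strand to E2F (TTCCCGC, and TTGGCGC, and TTCGCGC, and TTGCCGC), CHR (TTTGAA, and TTCGAA) or CCAAT, the letters bound by NF-Y. The E2F and CCAAT letters can share the bases TTGG.

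RRM2 is the small subunit of ribonucleotide reductase; the stretch lies at chr2:10122318-10122394 on the plus strand, 1 of its 2 annotated starts, with an E2F match 192 bases before the start. CDT1 is the licensing factor that brings MCM to origins; the stretch lies at chr16:88803742-88803784, plus strand, with E2F matches 35 and 23 bases before the start. CDC6 loads the helicase together with CDT1; the stretch lies at chr17:40287741-40287905, plus strand, with an E2F match 8 bases after the start.
RRM2: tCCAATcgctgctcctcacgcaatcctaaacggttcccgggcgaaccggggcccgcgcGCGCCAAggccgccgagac
CDT1: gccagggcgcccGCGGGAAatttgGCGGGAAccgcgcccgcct
CDC6: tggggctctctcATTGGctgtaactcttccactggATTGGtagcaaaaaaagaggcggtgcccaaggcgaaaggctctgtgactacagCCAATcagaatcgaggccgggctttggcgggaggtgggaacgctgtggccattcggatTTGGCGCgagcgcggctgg

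CDC20 activates the APC/C at anaphase; the stretch lies at chr1:43358791-43358942, plus strand, with CHR matches 178 and 65 bases before the start. CCNB2 is a mitotic cyclin; the stretch lies at chr15:59104896-59105134, plus strand, with a CHR match 29 bases before the start and 4 CCAAT matches upstream of it. BUB1B is a spindle checkpoint protein; the stretch lies at chr15:40161034-40161063, plus strand, with a CHR match 23 bases before the start.
CDC20: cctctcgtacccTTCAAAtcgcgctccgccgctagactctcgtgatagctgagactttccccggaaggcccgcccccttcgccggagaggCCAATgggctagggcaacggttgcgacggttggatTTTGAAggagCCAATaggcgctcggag
CCNB2: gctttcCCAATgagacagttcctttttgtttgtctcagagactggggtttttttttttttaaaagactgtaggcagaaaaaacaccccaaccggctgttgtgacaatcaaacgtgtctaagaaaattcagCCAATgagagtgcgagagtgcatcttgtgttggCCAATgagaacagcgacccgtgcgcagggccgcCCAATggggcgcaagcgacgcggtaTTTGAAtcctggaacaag
BUB1B: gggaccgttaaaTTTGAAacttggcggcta

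E2F letters were in a window of 17 of 20 replication genes and of 7 of 23 mitosis genes, against 20.5% of the 15842 protein-coding genes with a window. CHR letters ran the other way, in 2 of 20 replication genes and in 16 of 23 mitosis genes, against 17.5% of protein-coding genes. Counted by window, E2F stood in 69.2% of replication and 29.0% of mitosis windows, against 16.1% of all 22198 protein-coding windows, and CHR in 7.69% and 58.1%, against 13.7%. CCAAT was in 14 of 20 replication and 20 of 23 mitosis genes, against 42.1% of protein-coding genes. Position differed as well as presence. E2F matches of replication genes had their median centre 24.5 bases before the start, and 22 of 30 lay from 100 bases before to 50 bases after it. Of 11 E2F matches in mitosis genes 2 lay there, while 19 of 23 CHR matches of mitosis genes did, with a median 26.5 bases before the start. Neither CHR match of the replication genes, in MCM6 and RRM1, lay in that stretch. By window, 57.7% of replication and 3.23% of mitosis windows had an E2F match there, against 9.06% of all protein-coding windows. For CHR the shares were 0% and 51.6%, against 5.89%. Windows of 1 gene can overlap, and matches were counted in each window. A match of letters is a description of the window, and the factors were not measured.

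**Figure D1:**
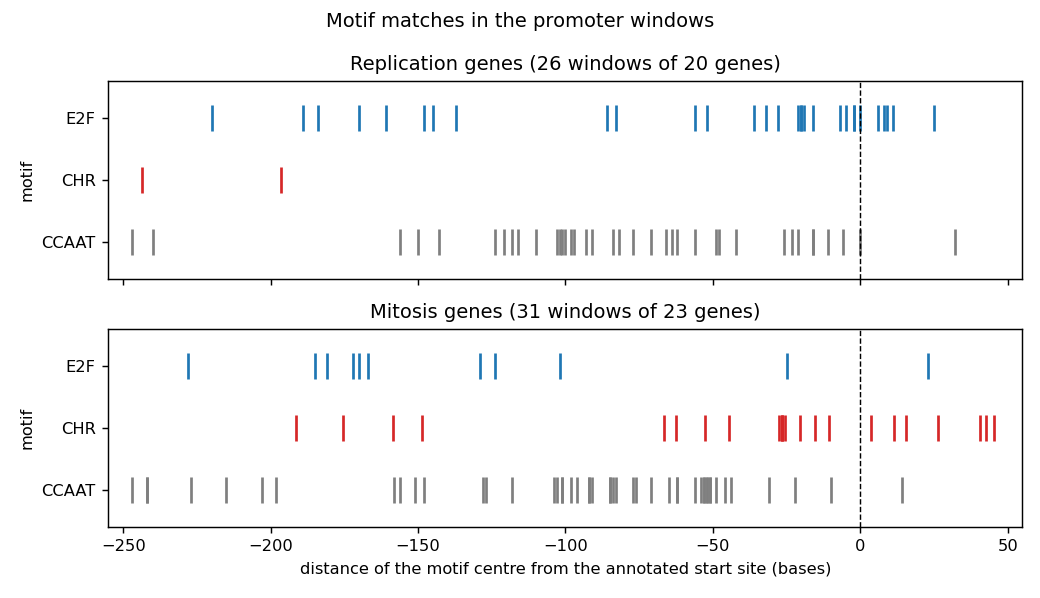
Positions of E2F, CHR and CCAAT letter matches (rows) in the promoter windows of replication genes (top) and mitosis genes (bottom), by distance of the motif centre from the annotated start site in bases; each tick is 1 match. E2F ticks of replication genes and CHR ticks of mitosis genes gather near the start site, where 22 of 30 and 19 of 23 lie from 100 bases before to 50 after it.

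Signals are quantile-normalized probe set intensities without a unit, and the floor is a signal of 26.4, the middle value of the non-control probe sets, to which lower values were raised. A fold with 1 side at the floor is a bound, written as at least. All 56 genes lay above the floor in FGF8 astrocytes and in neuroepithelial cells, and 5 lay at it in RA astrocytes: ORC1, CDT1, CDC45, CCNE1 and CENPA. Signals of different probe sets are not on a common scale, so genes are compared by their differences between arrays. A gene was called higher or lower at 2-fold or more. In cultures measured in bulk, fewer dividing cells and less RNA per dividing cell cannot be told apart.

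The astrocyte markers GFAP, S100B, AQP4, CD44, NFIA and SLC1A3 were at least 2-fold higher in both astrocyte arrays, while ALDH1L1 lay within 2-fold of neuroepithelial cells in each. With values at the floor counted as 26.4, the summed signal of these 7 genes was 34886 in RA astrocytes and 27441 in FGF8 astrocytes, against 555 in neuroepithelial cells. The 4 oligodendrocyte precursor genes summed to 1062 in RA astrocytes, 6480 in FGF8 astrocytes and 358 in neuroepithelial cells. PDGFRA carried most of the sum in both astrocyte arrays, at 793, 6040 and 173 in that order. OLIG1 had 178, 308 and 92.5, so it was higher in FGF8 astrocytes and within 2-fold in RA astrocytes. OLIG2 lay within 2-fold of neuroepithelial cells in both astrocyte arrays and SOX10 at the floor in both. The 6 neuron genes summed to 1146, 7523 and 4665 in the same order but disagreed: DCX alone had 6763 in FGF8 astrocytes, against 2058 in neuroepithelial cells, whereas STMN2 was at the floor in FGF8 astrocytes, against 2237 in neuroepithelial cells, and SYN1 was at the floor on all arrays. The 6 neuroepithelial genes summed to 1381, 2554 and 14786, with LIN28A at the floor in both astrocyte arrays. All 6 were lower in RA astrocytes and 5 in FGF8 astrocytes. The other, SOX1, had 1520 in FGF8 astrocytes, against 1862 in neuroepithelial cells. Over 4 mesenchymal genes the sums were 130, 452 and 7898, with COL1A1 and COL3A1 at the floor in both astrocyte arrays and PDGFRB in RA astrocytes. Of 2 pluripotency genes measured, NANOG lay at the floor in RA astrocytes and in neuroepithelial cells. The other, DPPA4, had 101, 67.6 and 1353 in the same order and made up most of the sums of 127, 94.2 and 1379. All 5 microglia genes were at the floor in FGF8 astrocytes and neuroepithelial cells and 4 of 5 in RA astrocytes, where CSF1R had 31.2. For ACTB, the 3' over 5' probe signal, which climbs as RNA shortens, was 6.67 in RA astrocytes, 6.63 in FGF8 astrocytes and 1.33 in neuroepithelial cells, so it was alike between the astrocyte arrays. Spiked-in transcripts were brighter in RA astrocytes than in FGF8 astrocytes by 1.27 ± 0.14 and than in neuroepithelial cells by 1.39 ± 0.22 in log2 of the deposited values (SD, n = 18 probe sets). The part of other cell types, RNA length and spike-in brightness in the results below was not tested.

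The 3 arrays stood in the same order for nearly every gene. RA astrocytes had the lowest signal, FGF8 astrocytes an intermediate one and neuroepithelial cells the highest for 55 of 56 genes, with CCNE2 the exception. All 56 genes were lower in RA astrocytes than in neuroepithelial cells, where 14.5% of all 13469 genes compared were lower, 18.1% higher and 46.7% below 0, and 52 of them were at least 4-fold lower, against 5.42% of all genes. The median log2 difference was -3.05, an 8.26-fold lower signal, against 0.07 over all genes. In FGF8 astrocytes 18 were lower, 37 lay within 2-fold of neuroepithelial cells and 1 was higher, where 10.1% of 13137 genes were lower and 12.8% higher. Their median was -0.80, against 0.05 over all genes, and 55 of 56 lay below 0, against 46.9% of all genes. Both of these comparisons share the neuroepithelial array. Set directly against each other, RA astrocytes were lower than FGF8 astrocytes for all 56 genes, where 7.77% of 13099 genes were, with a median of -2.33 against 0.01; 9.63% of all genes were higher and 49.4% lay below 0. At least 4-fold lower in RA than in FGF8 astrocytes were 40 genes, a minimum since ORC1 is a bound, against 2.63% of all genes.

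**Figure D2:**
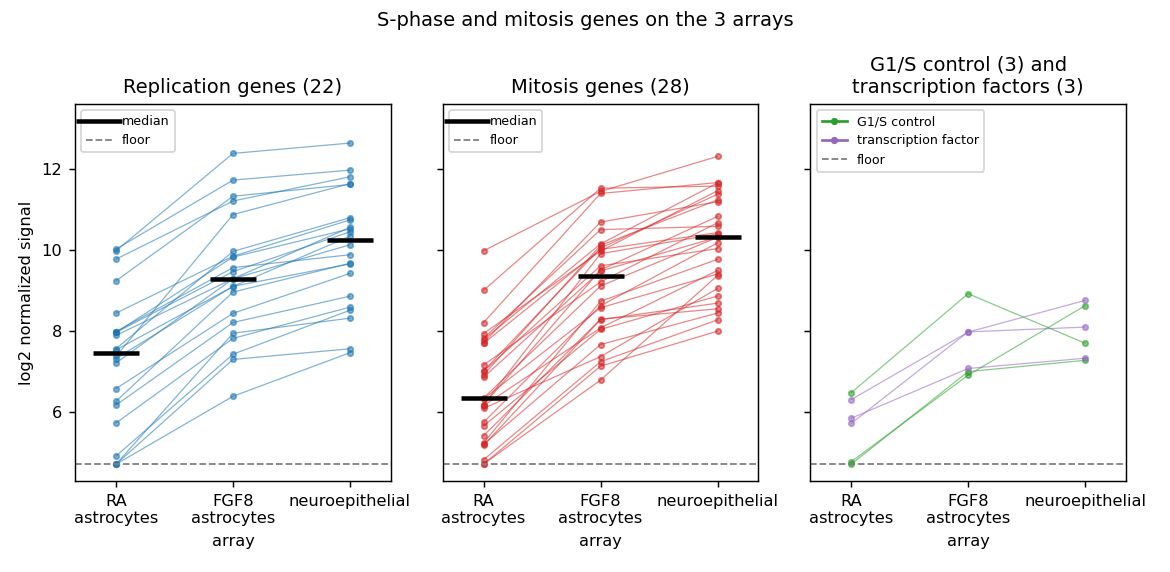
Log2 normalized signal (vertical axis) of each gene on the arrays of RA astrocytes, FGF8 astrocytes and neuroepithelial cells, in panels for replication genes, mitosis genes, and G1/S control genes with transcription factors. Each line is 1 gene, black bars are medians over genes and the dashed line is the floor; lines climb from RA astrocytes through FGF8 astrocytes to neuroepithelial cells, except for CCNE2.

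Among the licensing genes, all 10 were lower in RA astrocytes than in neuroepithelial cells, with a median of -2.83, and 3 of 10 were lower in FGF8 astrocytes. Of all genes compared, 14.5% were lower in RA astrocytes and 10.1% in FGF8 astrocytes. MCM2, a subunit of the replicative helicase, had a signal of 190 in RA astrocytes and 996 in FGF8 astrocytes, against 1773 in neuroepithelial cells. It was 9.35-fold lower in RA astrocytes and 1.78-fold lower in FGF8 astrocytes. The helicase subunits behaved alike, with RA astrocytes 7.51-fold below neuroepithelial cells for MCM4, 6.33-fold for MCM3, 5.57-fold for MCM7 and 5.18-fold for MCM6, and MCM5 at a log2 difference of -3.40. By the probe sets used, MCM3 alone of the subunits was past 2-fold in FGF8 astrocytes, at 2.40-fold lower, with MCM7 just inside at 1.97-fold. Other bright probe sets passed 2-fold there for MCM4 (-1.25 and -2.24), MCM5 (-1.03) and MCM7 (-1.45). The loader CDC6 had 30.3 in RA astrocytes, close to the floor, and 172 in FGF8 astrocytes, against 365 in neuroepithelial cells. CDT1 was at least 12.1-fold lower in RA astrocytes but 1.29-fold lower in FGF8 astrocytes, at 247 against 319 in neuroepithelial cells. ORC1, the cycling subunit of the origin recognition complex, was at least 6.71-fold lower in RA astrocytes and 2.10-fold lower in FGF8 astrocytes. ORC6, its smallest subunit, gave 254 in RA astrocytes and 756 in FGF8 astrocytes, against 942 in neuroepithelial cells, and at -1.89 had the smallest RA difference of the 22 replication genes.

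Genes that fire origins and copy DNA were lower in RA astrocytes throughout. CDC45, part of the active helicase, was at the floor there, and had 158 in FGF8 astrocytes against 189 in neuroepithelial cells. Of its partners, MCM10, which helps start the helicase, was 7.23-fold lower in RA astrocytes, and the GINS subunits GINS2 and GINS1 were 6.96-fold and 4.91-fold lower. By the probe sets used, GINS2 alone of these 4 was past 2-fold in FGF8 astrocytes, at 2.36-fold lower. Another bright probe set of MCM10 gave -1.14 there. PCNA, the sliding clamp, which also serves in DNA repair, had 1038 in RA astrocytes and 3367 in FGF8 astrocytes, against 3992 in neuroepithelial cells. It was 3.85-fold lower in RA astrocytes and 1.19-fold lower in FGF8 astrocytes. The clamp loader subunits RFC4 and RFC3 were 5.86-fold and 5.03-fold lower in RA astrocytes, POLE2, a subunit of the leading-strand polymerase, 6.41-fold, and the primase PRIM1 7.14-fold. None of these 5 fork genes passed 2-fold in FGF8 astrocytes, where 10.1% of all genes compared were lower. The differences of the fork genes there ran from -0.98 for PRIM1 to -0.25 for PCNA.

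Nucleotide supply split between the subunits of ribonucleotide reductase, the enzyme that makes deoxynucleotides. RRM2, the subunit whose level follows S phase, had 166 in RA astrocytes and 1870 in FGF8 astrocytes, against 3170 in neuroepithelial cells. Its 19.1-fold difference was the largest among replication genes above the floor in RA astrocytes; those at the floor have bounds and no rank. RRM1, the large subunit, was 4.08-fold lower, with 874 in RA astrocytes and 2356 in FGF8 astrocytes, against 3564 in neuroepithelial cells. TYMS, which makes thymidylate, had 1008 in RA astrocytes and 5310 in FGF8 astrocytes, against 6334 in neuroepithelial cells. Its FGF8 difference was -0.25, but another bright probe set of TYMS gave -1.33 there.

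The cyclins E, which bind CDK2 at the G1/S step, differed from each other. CCNE1 was at the floor in RA astrocytes and had 128 in FGF8 astrocytes, against 155 in neuroepithelial cells. CCNE2 had 89.2 in RA astrocytes and 484 in FGF8 astrocytes, against 208 in neuroepithelial cells. It was thus 2.33-fold lower in RA astrocytes and 2.33-fold higher in FGF8 astrocytes, the single gene of the 56 above neuroepithelial cells; its dimmer probe set gave -1.32 as a bound in RA astrocytes and 0.02 in FGF8 astrocytes. CDC25A, the phosphatase that activates CDK2, was 14.4-fold lower in RA astrocytes and 3.28-fold lower in FGF8 astrocytes. It had 27.5 in RA astrocytes, close to the floor, and 121 in FGF8 astrocytes, against 395 in neuroepithelial cells. Among the transcription factors, E2F1, an activator of replication genes, had 57.7 in RA astrocytes and 135 in FGF8 astrocytes, against 161 in neuroepithelial cells. MYBL2, which encodes B-MYB, was 5.18-fold lower in RA astrocytes and 1.08-fold lower in FGF8 astrocytes. FOXM1, an activator of mitotic genes, was 5.44-fold and 1.72-fold lower. None of these 3 factors passed 2-fold in FGF8 astrocytes, where 10.1% of all genes compared were lower.

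Of the CDK1 group, CCNB2 was 19.8-fold lower in RA astrocytes, with 121 there and 1105 in FGF8 astrocytes, against 2401 in neuroepithelial cells. CCNB1, the main mitotic cyclin, had 245 in RA astrocytes and 1002 in FGF8 astrocytes, against 2811 in neuroepithelial cells, and was past 2-fold in both. CCNA2, the cyclin of S phase and G2, was 10.9-fold lower in RA astrocytes and 1.78-fold lower in FGF8 astrocytes. Another bright probe set of CCNA2 gave -1.74 in FGF8 astrocytes. CDC25C, which activates CDK1, was 10.9-fold lower in RA astrocytes, where its 28.5 was close to the floor, and 2.04-fold lower in FGF8 astrocytes. CDK1 itself had 513 in RA astrocytes and 2930 in FGF8 astrocytes, against 3041 in neuroepithelial cells. Its FGF8 difference of -0.05 was the smallest of all 56 genes, but other bright probe sets of CDK1 gave -1.61 and -1.34.

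AURKB and BIRC5, of the chromosomal passenger complex, which corrects attachments between chromosomes and spindle, had the largest differences among those of the 56 genes above the floor in RA astrocytes. Of its other subunits CDCA8 was -3.72 in RA astrocytes and INCENP -1.46 as a bound. AURKB, the kinase, had 26.5 in RA astrocytes, barely above the floor, and 111 in FGF8 astrocytes, against 660 in neuroepithelial cells. It was 24.9-fold lower in RA astrocytes. At 5.96-fold it was, by the probe sets used, the single gene past 4-fold in FGF8 astrocytes, where 3.43% of all genes were. Other bright probe sets passed 4-fold there for BIRC5 (-2.59), MAD2L1 (-2.36), MCM4 (-2.24) and BUB1 (-2.10). BIRC5, or survivin, a partner of AURKB, had 72.6 in RA astrocytes and 727 in FGF8 astrocytes, against 1811 in neuroepithelial cells, and its log2 difference in RA astrocytes was -4.64. AURKA, the kinase of spindle poles, was 15.5-fold lower in RA astrocytes and 2.30-fold in FGF8 astrocytes. Another bright probe set of AURKA gave -0.91 in FGF8 astrocytes, within 2-fold. PLK1, a kinase needed throughout mitosis, was 7.74-fold and 3.20-fold lower, so RA and FGF8 astrocytes lay closer for it, 2.42-fold apart, than for most. PLK4, which drives centriole duplication, was 9.18-fold and 1.77-fold lower, and MELK, a kinase of dividing progenitors, 6.62-fold and 1.33-fold.

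The genes of the spindle checkpoint and of the switch to anaphase (the APC/C activator CDC20, its enzyme UBE2C and its substrate PTTG1) had the lowest median of any role in RA astrocytes, -4.20 over 7 genes, none of them an APC/C subunit. TTK, the kinase at the head of the checkpoint, had 38.0 in RA astrocytes and 426 in FGF8 astrocytes, against 871 in neuroepithelial cells, a log2 difference of -4.52 in RA astrocytes. CDC20 was 21.4-fold lower in RA astrocytes, at 54.0, against 395 in FGF8 astrocytes and 1153 in neuroepithelial cells. UBE2C, the ubiquitin-conjugating enzyme of the APC/C, was 20.4-fold lower in RA astrocytes, and at -1.32 also past 2-fold in FGF8 astrocytes. BUB1B had 73.1 in RA astrocytes and 959 in FGF8 astrocytes, against 1343 in neuroepithelial cells; it was 1.40-fold lower in FGF8 astrocytes, and its 13.1-fold difference between RA and FGF8 astrocytes was the largest among genes above the floor on both arrays. The checkpoint genes MAD2L1 and BUB1 were 14.5-fold and 10.0-fold lower in RA astrocytes, and 2.83-fold and 2.67-fold in FGF8 astrocytes. PTTG1, which encodes securin, the guard of sister chromatid cohesion, differed least of the mitosis genes in RA astrocytes, at -2.32, with 1008 in RA astrocytes and 2774 in FGF8 astrocytes, against 5042 in neuroepithelial cells.

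Spindle and chromosome genes were 6.76-fold to 11.3-fold lower in RA astrocytes, with CENPA as a bound. In FGF8 astrocytes, where 10.1% of all genes compared were lower, 1 of 10, TPX2, passed 2-fold by the probe sets used. Other bright probe sets passed it there for NUSAP1 (-1.23), KIF23 (-1.05) and MKI67 (-1.70). TPX2, which activates AURKA and nucleates spindle microtubules, had 143 in RA astrocytes and 593 in FGF8 astrocytes, against 1625 in neuroepithelial cells. The kinesin KIF11, which pushes spindle poles apart, was 8.11-fold lower in RA astrocytes and 1.34-fold lower in FGF8 astrocytes. KIF20A and KIF23, kinesins of cytokinesis, were 8.42-fold and 9.40-fold lower in RA astrocytes. NUSAP1, which binds spindle microtubules, had 296 in RA astrocytes and 2681 in FGF8 astrocytes, against 3227 in neuroepithelial cells. At the kinetochore, CENPE, a motor, and CENPF were 11.3-fold and 6.76-fold lower in RA astrocytes but -0.40 and -0.08 in FGF8 astrocytes, and CENPA, the centromeric histone, was at least 9.69-fold lower in RA astrocytes. TOP2A, which untangles sister chromatids, had 210 in RA astrocytes and 1644 in FGF8 astrocytes, against 2327 in neuroepithelial cells. MKI67, which encodes the proliferation marker Ki-67, had 42.9 in RA astrocytes and 313 in FGF8 astrocytes, against 374 in neuroepithelial cells. Its probe sets disagreed in FGF8 astrocytes, where the main 1 gave -0.26 and the others 0.31, -0.99 and -1.70, while in RA astrocytes all 4 lay between -4.31, a bound, and -2.61.

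**Figure D3:**
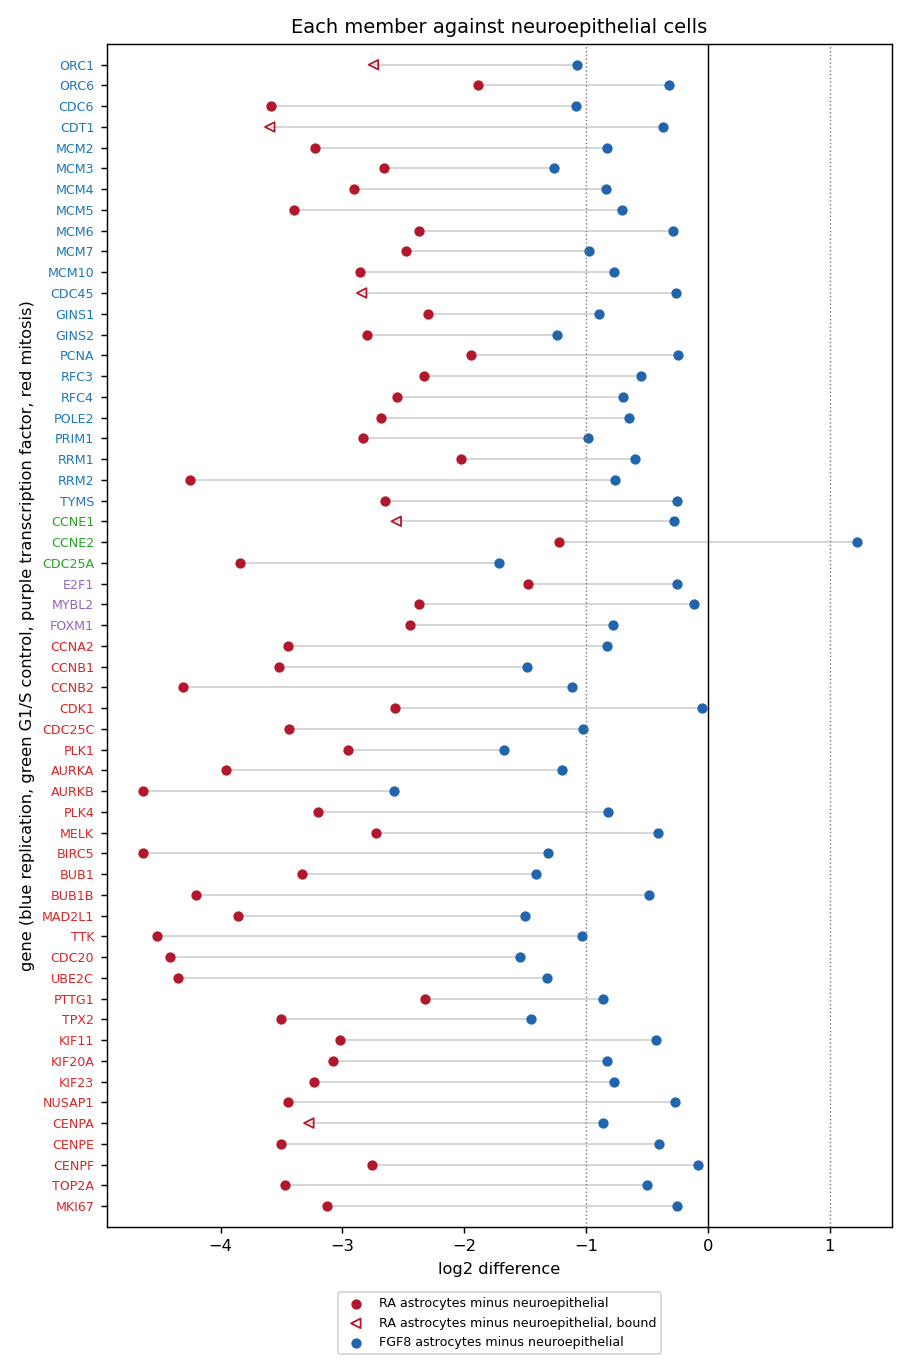
Log2 difference from neuroepithelial cells (horizontal axis) for each of the 56 genes, in RA astrocytes (red) and FGF8 astrocytes (blue); open triangles are bounds and dotted lines mark 2-fold. Filled red points run from -4.64 for AURKB and BIRC5 to -1.22 for CCNE2, and blue points from -2.57 for AURKB to 1.22 for CCNE2.

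Mitosis genes lay lower than replication genes in RA astrocytes. Against neuroepithelial cells the medians were -3.45 over 28 mitosis genes and -2.71 over 22 replication genes, a gap of -0.74. Of the mitosis genes, 26 of 28 lay below the replication median, and 3 of 22 replication genes, RRM2, CDT1 and CDC6, lay below the mitosis median. At least 8-fold lower were 23 of 28 mitosis genes and 5 of 22 replication genes, against 330 of all 13469 genes compared. Both replication counts are minimums, since ORC1 and CDC45 are bounds short of these marks. Between RA and FGF8 astrocytes the medians were -2.55 and -1.94, a gap of -0.61. In FGF8 astrocytes against neuroepithelial cells the gap was -0.13, from medians of -0.86 and -0.73. At least 2-fold lower there were 13 of 28 mitosis genes, against 10.1% of all 13137 genes compared. So were 4 of 22 replication genes: ORC1, CDC6, MCM3 and GINS2. The 3 replication bounds against neuroepithelial cells (ORC1, CDT1 and CDC45) already lay below the replication median, and the 1 mitosis bound, CENPA, above the mitosis median. Between RA and FGF8 astrocytes ORC1, at -1.67 as a bound, lay above the replication median, and CENPA, at -2.42 as a bound, above the mitosis median. That gap may therefore be narrower or wider. Genes are not replicates, and the gap has no test.

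Among other genes of the same machinery, mitosis genes again lay lower than replication genes in RA astrocytes, while the class medians in FGF8 astrocytes were both -0.72. Of 48 other mitosis genes 47 were lower in RA astrocytes than in neuroepithelial cells, with a median of -3.16, and 14 were lower in FGF8 astrocytes. HMMR, which organises spindle poles, was -4.70 in RA astrocytes, DLGAP5, a spindle protein, -4.67, HJURP, the chaperone of CENPA, -4.51 as a bound, and ASPM, a spindle pole protein, -4.01. The 1 within 2-fold was SGO1, a protector of cohesion, at -0.96. Of 37 other replication genes measured 25 were lower in RA astrocytes, with a median of -1.63, and 7 in FGF8 astrocytes. Over all genes, 14.5% were lower in RA astrocytes and 10.1% in FGF8 astrocytes. The nuclease DNA2 was -3.74 as a bound, TIMELESS, a fork protection protein, -3.22, the flap nuclease FEN1 -3.19, and DBF4, the activator of the CDC7 kinase, -3.12. Within 2-fold lay the origin recognition subunits ORC2 (-0.90), ORC4 (0.09) and ORC5 (0.08), beside RFC1 (-0.42) and POLE3 (-0.91). RFC5, a clamp loader subunit, was 0.80 in RA astrocytes and 1.45 in FGF8 astrocytes, the single other replication gene called higher there.

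Of 14 APC/C genes measured besides CDC20, among them FZR1, its activator in G1, 3 were lower in RA astrocytes (CDC23, ANAPC16 and CDC27, at -1.31, -1.31 and -1.29) and 11 lay within 2-fold, with a median of -0.38. FZR1 was 3.38-fold higher in RA than in FGF8 astrocytes. Among 12 pocket and DREAM proteins, which hold cell cycle genes silent in resting cells, 4 were lower and 1 higher in RA astrocytes. Their median was -0.40, and LIN9 was lower as a bound. Beside both lists, 14.5% of all genes were lower and 18.1% higher in RA astrocytes than in neuroepithelial cells. RBL1, a pocket protein made in cycling cells, had 29.2 in RA astrocytes and 131 in FGF8 astrocytes, against 82.0 in neuroepithelial cells. RBL2, the pocket protein of resting cells, had 682 in RA astrocytes and 849 in FGF8 astrocytes, against 422 in neuroepithelial cells, at 0.69 and 1.01. LIN37, a MuvB subunit, was 3.34-fold higher in RA astrocytes and 1.98-fold higher in FGF8 astrocytes than in neuroepithelial cells.

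**Figure D4:**
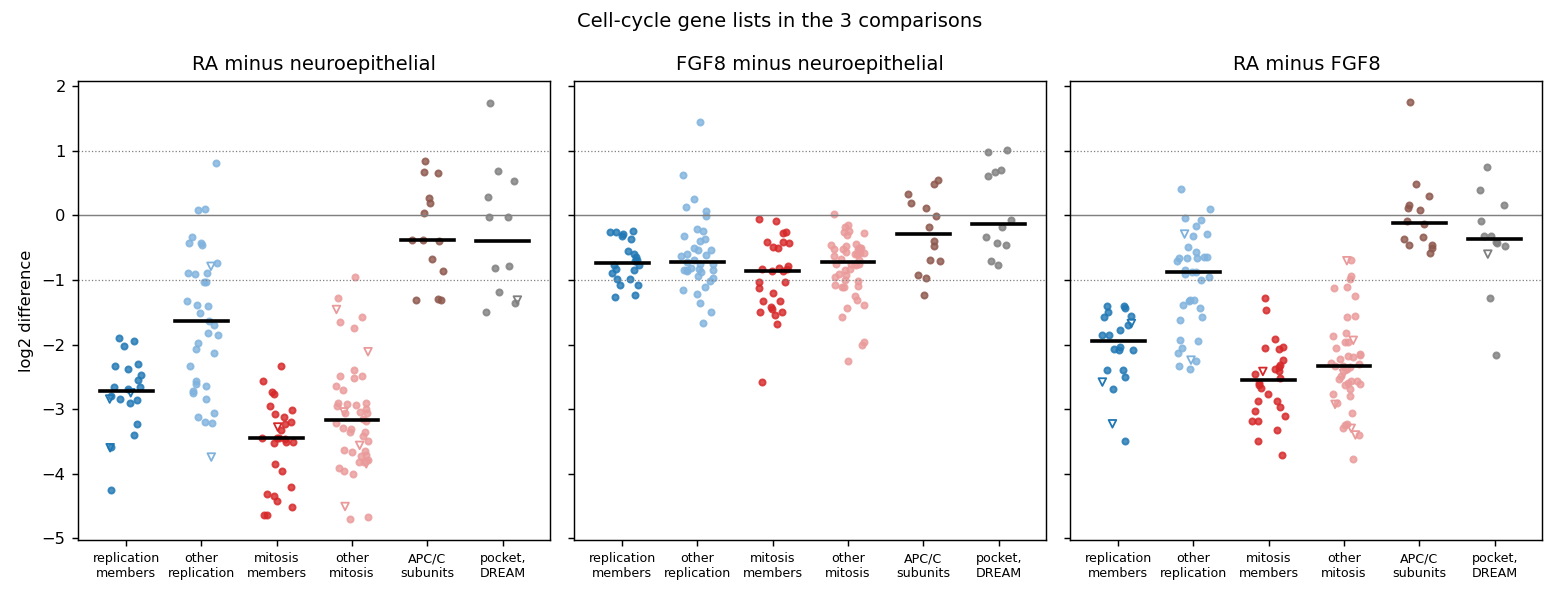
Log2 difference (vertical axis) of single genes by list, in 3 panels: RA against neuroepithelial, FGF8 against neuroepithelial, and RA against FGF8. Black bars are medians, open triangles bounds and dotted lines 2-fold; mitosis genes lie lowest in the left panel, at medians of -3.45 and -3.16, and APC/C subunits near 0, at -0.38.

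Of the 56 genes 32 had more than 1 probe set, and 32 further probe sets of 24 genes were bright, at least 4-fold above the floor on either array compared. All 32 were at least 2-fold lower in RA astrocytes than in neuroepithelial cells, with a median of -3.47, against -3.22 for the probe sets used. All 32 were bright in neuroepithelial cells and 7 in RA astrocytes, so the choice of bright probe sets partly fixes this direction. In FGF8 astrocytes 21 of 32 were at least 2-fold lower and 25 of 32 lay below the probe set used, with a median of -1.25 against -0.77. Between RA and FGF8 astrocytes 25 of 26 bright probe sets were at least 2-fold lower in RA astrocytes, the other being MCM4 at -0.78, and all 26 were bright in FGF8 astrocytes. Among dim probe sets, 1 of CCNB2 ran opposite to its bright one, with 62.7 in RA astrocytes and 95.0 in FGF8 astrocytes, against 27.9 in neuroepithelial cells. How far below neuroepithelial cells FGF8 astrocytes lay thus depended on the probe set. It also depended on scaling: with array medians set equal, the median of all genes compared was 0.43 in place of 0.05, and 3 of 56 genes were lower in FGF8 astrocytes. With the same scaling 55 were lower in RA astrocytes than in neuroepithelial cells, and all 56 lower than in FGF8 astrocytes. The share of all genes lower with that scaling was not counted.

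**Figure D5:**
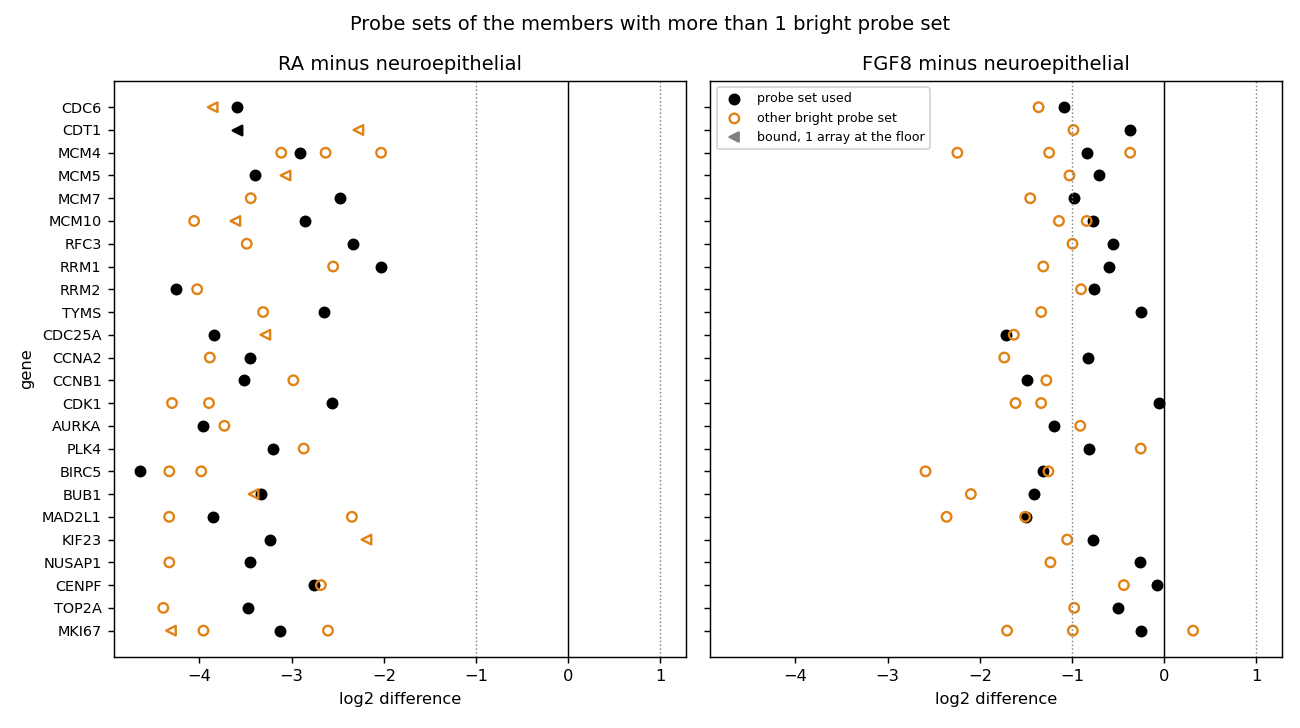
Log2 difference from neuroepithelial cells (horizontal axis) of each bright probe set of the 24 genes with more than 1, in RA astrocytes (left) and FGF8 astrocytes (right). Black filled points are the probe sets used, orange open points the others and triangles bounds; in FGF8 astrocytes 25 of 32 orange points lie left of the black point of their gene.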

How the data were processed

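Total RNA was biotin-labelled at a microarray consortium and hybridised to Affymetrix arrays, per the labels. The authors deposited 1 linear intensity per probe set, already scaled per array to a mean of about 150.0 without the lowest and highest 2%; how probe signals were summarised is not stated in the labels. Intensities were quantile-normalized over the 3 arrays, brought to log2 and raised to a floor at the median of 54613 non-control probe sets. Genes came from 41091 probe sets with 1 symbol, by the highest mean, and 1 probe set shared by CENPA and another gene was left out. Of the 56 genes 5 rest on a less specific probe set type (_x_at). With 1 array per group no test was made. Calls are sizes of 2-fold. Members, roles, gene lists and alternatives were chosen with earlier results of these data known; the lists count genes by name, any of the 56 may be named, and other lists name up to 4 genes per direction. Lists of markers and motifs, the floor and promoters are described with the results. Alternatives changed the scaling, floor, probe set, size and class. Code was tested on simulated data (Python 3.11.15, numpy 2.4.6, pandas 2.3.3).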

Additional observations from a re-analysis of the deposited data

Results flagged for a closer look

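CCNE2 lay on opposite sides of neuroepithelial cells in the astrocyte arrays, at -1.22 in RA astrocytes and 1.22 in FGF8 astrocytes on the log2 scale. Its dimmer probe set gave -1.32 as a bound in RA astrocytes and 0.02 in FGF8 astrocytes. The RA difference was -0.95 with array medians set equal and -2.15 with the mean of all probe sets. These differences were not tested, since each group had 1 array.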

How the results depend on the processing

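No paired analysis was possible because each group had 1 array. The count of lower genes in RA astrocytes against neuroepithelial cells stayed between 52 and 56 of 56 under the alternatives run, except that without the _x_at and _s_at probe sets it was 52 of the 55 genes compared. In FGF8 astrocytes against neuroepithelial cells the count of 18 was 3 with array medians set equal (2 mitosis, 0 replication), 36 at 1.5-fold (15 replication) and 1 at 4-fold (1 mitosis, 0 replication), where 0 were higher. Of all genes compared, 3.43% were at least 4-fold lower in FGF8 astrocytes than in neuroepithelial cells. The shares of all genes at 1.5-fold and with array medians set equal were not counted. Between RA and FGF8 astrocytes 11 replication genes were lower at 4-fold, against 2.63% of all genes. With the mean of all probe sets CCNB2 turned to 1.03 in FGF8 astrocytes against neuroepithelial cells. Without the _x_at and _s_at probe sets GINS2 was 0.10 in RA astrocytes against neuroepithelial cells and 0.11 against FGF8 astrocytes, from a probe set near the floor. The gap between mitosis and replication medians in RA astrocytes against neuroepithelial cells ran from -0.92 among brighter genes to -0.49 among dimmer ones, a split chosen after seeing the data. Values near the floor limit the sizes in RA astrocytes, and medians were taken as moved past 1.5-fold.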
